A study of Homo sapiens with 26 samples.

Results

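Clustered H3K27ac domains are stretches of chromatin in which many acetylated pieces lie close together, and here 1088 of 13334 stitched spans (8.16%) reached the length set for them. They were selected on measured values: the bases covered by peaks in both H3K27ac lists of WT cells at 10 h, with pieces lying wholly within 2500 bp of a coding start site taken out, pieces up to 12.5 kb apart joined, and spans of at least 20 kb kept. The other 12246 spans were shorter. The study profiled HCT116, a human colon carcinoma line with an intact p53 response, by ChIP-seq, in which DNA bound to a modified histone is recovered with an antibody and sequenced. WT cells were given 10 µM Nutlin-3a, which blocks the binding of p53 by HDM2, for 1 h or 10 h, or DMSO (0 h), and HCT116_RAD21 cells were given DMSO or Nutlin-3a for 1 h. HCT116_RAD21 carries a degron tag on the cohesin subunit RAD21, is a single engineered line, and is called RAD21 line below. By the study's methods, RAD21 was degraded in it with the auxin analogue 5-Ph-IAA for hours before Nutlin-3a, and the peak names carry the tag rad21KD. The sample labels do not name this treatment. Each of the 5 H3K27ac groups (WT 0, 1 and 10 h, RAD21 line 0 and 1 h) and the 3 H3K4me1 groups (WT 0, 1 and 10 h) had 2 lists, named as biological replicates.

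Acetylation of histone H3 at lysine 27 marks active enhancers and promoters, whereas monomethylation at lysine 4 marks enhancers both active and primed. Long clusters of acetylated elements, often called super-enhancers, are known to lie near genes that set the identity of a cell type, and in cancer cells near growth genes. The covered length of a peak list also depends on how its peaks were called, which bears on every comparison below.

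The 10 H3K27ac lists came in 2 forms. In 3 of them (both WT 0 h lists and WT 1 h replicate 1) the peak names lacked the word input, the widest peak was 3.91 to 4.21 kb and 0 peaks exceeded 10 kb. In the other 7 the names held the word, the widest peak was 39.6 to 68.4 kb and 70 to 275 peaks exceeded 10 kb. Covered length inside a long domain is therefore not comparable between forms, and WT 0 h cannot be told apart from the form without input. Only the RAD21 line at 1 h against 0 h was compared within 1 form with 2 lists on each side. Of 9 colon epithelial marker genes, 8 had an H3K27ac peak at the promoter in all 10 lists, VIL1 had none, and none of 12 markers of other cell types had a peak in any list. The files give peaks and no read totals, so the depth of each library is unknown here, and the number of lists limits the precision.

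The following 300-base windows (GRCh37, plus strand) are centred on the summit of the strongest peak of WT 10 h replicate 1 in 2 of the longest domains and in 2 domains linked to p53 targets, to show the DNA at the peak of the acetylation. Capitals mark matches on either strand to TGANTCA (AP-1), CATTCC (TEAD), CTTTGAT (TCF/LEF) or a full p53 response element, searched as an exact pair of consensus sites at most 1 base apart. Matches of different motifs may overlap.
ZC3H4 (chr19:47615941-47616240): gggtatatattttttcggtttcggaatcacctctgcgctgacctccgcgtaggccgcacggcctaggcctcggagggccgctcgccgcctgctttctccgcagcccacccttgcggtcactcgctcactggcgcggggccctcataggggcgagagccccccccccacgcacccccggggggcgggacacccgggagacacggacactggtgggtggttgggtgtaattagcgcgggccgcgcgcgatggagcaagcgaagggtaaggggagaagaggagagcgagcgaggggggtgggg
ARHGAP29 (chr1:94791986-94792285): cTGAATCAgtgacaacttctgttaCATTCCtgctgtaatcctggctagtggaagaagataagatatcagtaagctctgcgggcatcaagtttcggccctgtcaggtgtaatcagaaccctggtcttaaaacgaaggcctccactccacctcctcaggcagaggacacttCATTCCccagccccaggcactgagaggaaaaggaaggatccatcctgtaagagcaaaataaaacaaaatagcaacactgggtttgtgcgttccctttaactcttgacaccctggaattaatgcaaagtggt
EIF4B (chr12:53400361-53400660): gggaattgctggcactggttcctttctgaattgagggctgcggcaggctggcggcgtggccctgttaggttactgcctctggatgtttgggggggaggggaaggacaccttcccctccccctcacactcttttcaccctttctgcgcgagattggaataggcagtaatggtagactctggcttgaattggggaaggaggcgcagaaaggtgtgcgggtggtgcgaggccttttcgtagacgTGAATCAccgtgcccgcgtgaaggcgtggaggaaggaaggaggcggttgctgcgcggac
MDM2 (chr12:69202128-69202427): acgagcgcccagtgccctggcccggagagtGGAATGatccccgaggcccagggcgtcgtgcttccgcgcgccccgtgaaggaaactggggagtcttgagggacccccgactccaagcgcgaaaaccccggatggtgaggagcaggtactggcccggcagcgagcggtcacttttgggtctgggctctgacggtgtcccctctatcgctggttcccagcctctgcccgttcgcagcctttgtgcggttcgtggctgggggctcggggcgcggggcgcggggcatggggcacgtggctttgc
The ZC3H4 window held no match to any of the 4 motifs, and its summit lay 0.942 kb from a coding start. The ARHGAP29 window, 88.9 kb from a coding start, held 1 AP-1 and 2 TEAD matches. The EIF4B window, 0.27 kb from a coding start, held 1 AP-1 match. The MDM2 window, 0.034 kb from a coding start, held 1 TEAD match. Only the ARHGAP29 window thus lay beyond 2500 bp of a coding start. The EIF4B domain was linked to the p53 list through KRT8, and EIF4B itself is not on that list. Over all strongest-peak windows, 9.19% of 1088 domain windows and 14.8% of 11719 shorter-span windows held TGANTCA (14.4% of all 12807), 12.7% and 15.6% held CATTCC (15.3% of all), and 2.21% and 3.13% held CTTTGAT (3.05% of all). A full p53 element matched 0 domain windows and 88 shorter ones (0.687% of all). The windows of the domains lay within 2500 bp of a coding start in 41.9% of cases against 6.05% for shorter spans, and their median GC content was 59.7% against 50.7%. Among windows farther from starts the AP-1 shares were 12.97% of 632 and 15.4% of 11010. In the same windows the CATTCC shares were 15.3% and 15.8%, and the CTTTGAT shares 2.53% and 3.25%. A full p53 element matched 0% and 0.799% of them. These shares are descriptions, since the windows were taken from the list that chose the domains.

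The domains spanned 41.7 Mb, and their pieces made up 15.0 Mb, which was 42.9% of all 34.9 Mb in pieces. Their median length was 31.1 kb (20.0 to 218 kb), with a median of 7 pieces (2 to 74) and 30.7% of the span inside pieces (4.99 to 98.6%). Of them, 206 reached 50 kb and 29 reached 100 kb. In 221 domains at least 50% of the span lay in pieces, and in 297 less than 20% did, so the set held both near-continuous blocks and strings of scattered peaks. The values at the threshold were close: 3 spans just above it measured 20.003 kb (near RPE65), 20.005 kb (SH3TC2) and 20.026 kb (SPAG4 and CPNE1), and 3 just below measured 19.983 kb (GJC1), 19.928 kb (SLC28A1) and 19.908 kb (PANK2). Density was highest on chromosome 19 (18.1 domains per 10 Mb) and chromosome 17 (13.2), and X had 0.386.

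**Figure D1:**
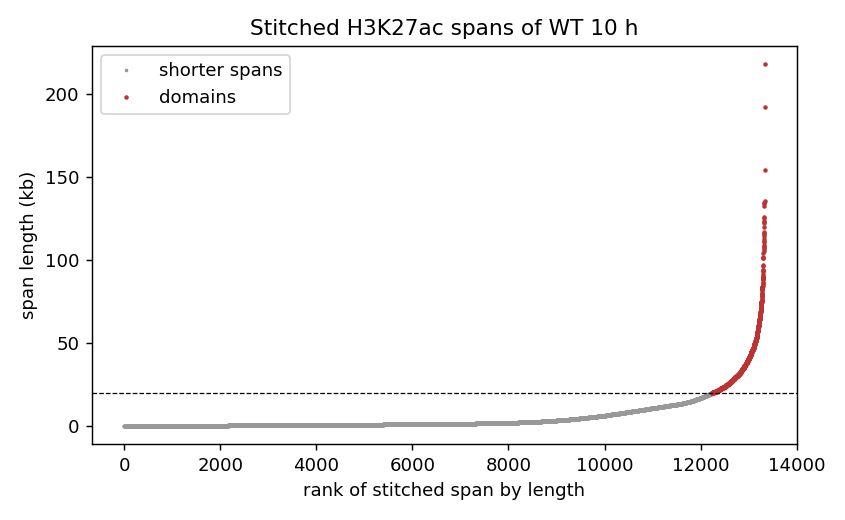
Length in kb of each stitched H3K27ac span of WT 10 h, ordered from shortest to longest, with the dashed line at 20 kb. The 1088 domains occupy the steep right end, up to 218 kb.

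Most domains lay in genes. A coding gene body overlapped 982 domains (90.3%) against 64.9% of shorter spans, and a coding start lay inside 591 (54.3%) against 5.59%, with no allowance made for the length of the spans. In all, 3214 of 20136 coding genes (16.0%) were linked to a domain, meaning a start inside it or within 50000 bp, or a body overlapping it. The longest domain (chr16:89335042-89553150, 218 kb, 74 pieces) covered ANKRD11, a chromatin regulator. Next came 192 kb on chromosome 19 over ZC3H4, SAE1, BBC3 and CCDC9 (chr19:47582397-47774687), where BBC3 encodes the p53-induced cell death protein PUMA. The others of the 10 longest were 154 kb at ARHGAP29, 136 kb at PCDH7, 134 kb at ERRFI1, an inhibitor of EGFR family receptors, 134 kb at SYTL3 and EZR, 132 kb from SBNO2 to FAM174C, 126 kb at TMEM67 and PDP1, 126 kb near KLF14 and 123 kb at MPRIP. At PCDH7, 84.0% of the span lay in pieces, whereas at MPRIP 19.3% did.

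The H3K27ac cover of ERRFI1 in kb was 22.3 and 21.6 at WT 0 h, 23.5 and 87.3 at WT 1 h, 81.6 and 84.0 at WT 10 h, 61.5 and 65.1 for RAD21 line cells at 0 h, and 86.6 and 88.3 for them at 1 h. The 3 lists without input sat far below the 7 with it, so the WT 1 h lists differed more from each other than the RAD21 line's lists did across time. ARHGAP29 gave 25.5 and 28.6 kb for RAD21 line cells at 0 h and 63.6 and 63.4 kb at 1 h, with no overlap. It was not called in the reported limma fit described below (log2 difference 1.01 ± 0.94 SE, adjusted p = 0.554), whose spread also comes from the WT 1 h pair of mixed form. PCDH7 gave 91.8 and 93.2 kb at 0 h and 97.1 and 99.7 kb at 1 h in that line.

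Gene lists were described by the share of their genes linked to a domain, beside 16.0% of all coding genes. Of 43 p53 targets, 16 were linked (37.2%), among them CDKN1A, the cell cycle inhibitor p21, MDM2, BAX, BBC3, GDF15 and SFN. Of 34 laminin, integrin, keratin and junction genes 18 were linked (52.9%), including KRT8, KRT18, LAMA5, ITGB4 and CLDN4. The list of EGFR family ligands and receptors had 7 of 15 (46.7%; EREG, EGFR, ERBB2, ERBB3, their inhibitor ERRFI1, and, from outside that family, the HGF receptor MET and the cytokine LIF), the AP-1 and immediate early list 11 of 27 (40.7%; FOSL1, JUNB, EGR1 and IER3 among them), the intestinal transcription factors 7 of 29 (24.1%; ELF3, EHF, KLF6 and TCF7L2 among them) and the Wnt and stem genes 6 of 26 (23.1%; CD44, RNF43 and CCND1 among them). Longer genes and gene-dense regions meet the link rule more easily, and this was not adjusted for. The lists were chosen with earlier results of these data known, and some share members, such as KRT8 and TCF7L2. MET, a growth factor receptor, lay under 2 domains of 64.9 and 58.0 kb, and TCF7L2, the transcription factor of Wnt signalling, under 2 domains, the longer of 97.2 kb.

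**Figure D2:**
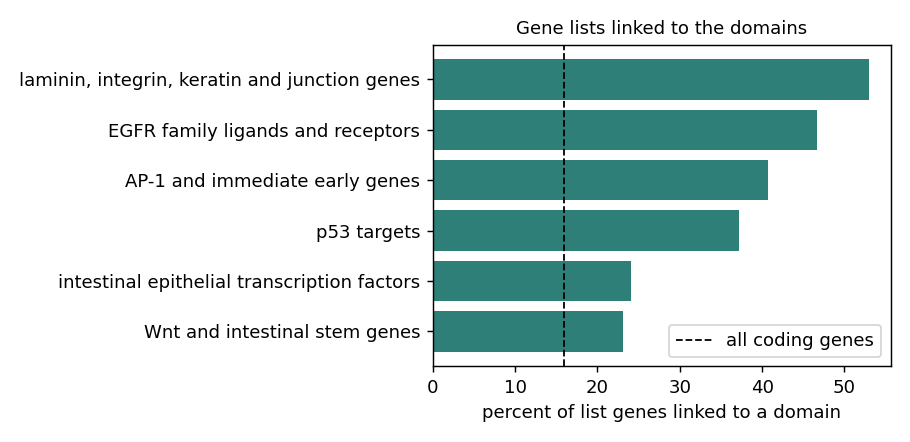
Percent of the genes in each of 6 lists that were linked to a domain, as bars from 0, with all coding genes (16.0%) as a dashed line. Every list sits above the line, from 23.1% for Wnt and stem genes to 52.9% for laminin, integrin, keratin and junction genes. The lists were chosen with earlier results of these data known.

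Some H3K27ac cover lay in nearly all domains in the other groups. Cover counts any peak in the span, including peaks near coding starts that the rule took out. A coding start lay inside 54.3% of domains and 5.59% of shorter spans. Cover was present in all 10 lists in 931 domains (85.6%) against 53.2% of shorter spans, with no allowance for length. Counted by piece the order was the other way in each of the 8 lists outside WT 10 h; in WT 0 h replicate 1 30.8% of pieces in domains and 56.8% of those in shorter spans were touched. In all, 2 domains had none in the 8 lists outside WT 10 h. The median percent of the span covered was 10.8 and 10.3 at WT 0 h, 10.3 and 29.4 at WT 1 h, 41.6 and 39.1 at WT 10 h, 24.0 and 26.2 for RAD21 line cells at 0 h, and 30.6 and 32.7 there at 1 h. The low values belong to the 3 lists without input. In both WT 0 h lists 59 domains had no cover, such as SSU72, MTOR and CASZ1, and MTOR had 3.77 and 3.32 kb at 10 h. At WT 10 h, cover exceeded WT 0 h without overlap in 1082 domains, beside 82.3% of all 13334 spans; the selection used these lists and the form differs, so nothing is read from it.

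**Figure D3:**
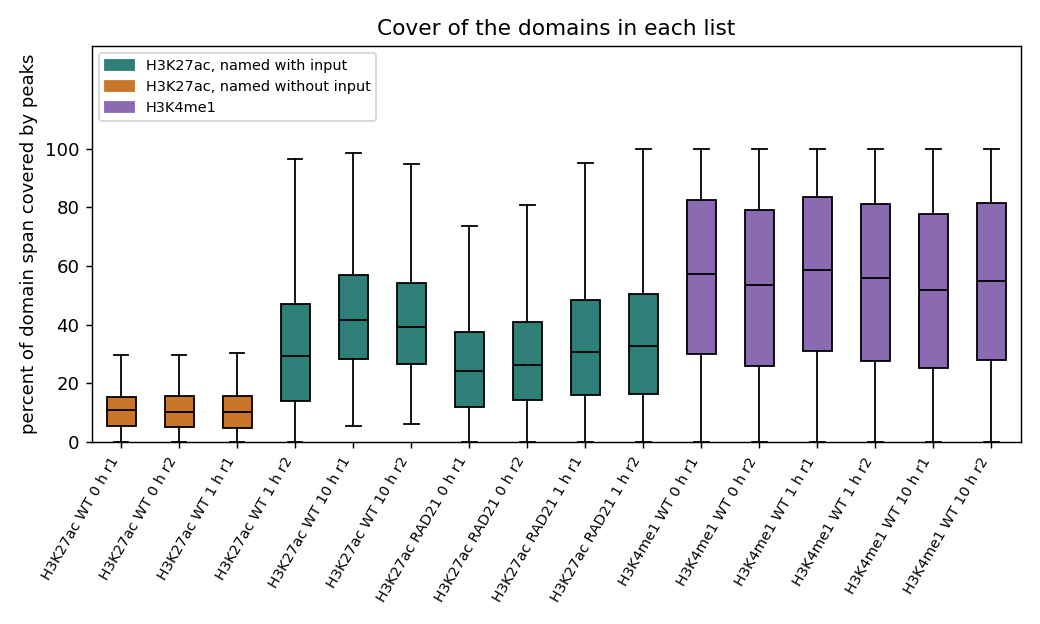
Percent of each domain span covered by peaks, for 1088 domains in each of 16 lists, with boxes from the 25th to the 75th percentile, a line at the median, whiskers to the farthest value within 1.5 box lengths, and r1 and r2 for the replicates. Medians are 10.3 to 10.8% in the 3 H3K27ac lists named without input and 24.0 to 41.6% in the 7 others.

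When the same rule was applied to the other groups, 201 domains overlapped a span of 20 kb or more at WT 0 h, 209 at WT 1 h, 489 for RAD21 line cells at 0 h and 581 for them at 1 h. All 4 groups met it in 143 domains and none in 402. WT 1 h replicate 2 alone gave 738 and replicate 1 alone 230. The share of the WT 10 h acetylated bases also covered in the 8 other lists differed by -9.18 percentage points on average between domains and shorter spans (SD 11.5, n = 8 lists). It was -0.901 over the 5 lists with input, with 2 of 5 lists higher in domains, and -23.0 over the 3 without, with 0 of 3 higher, so the size of the difference went with the form. Against shorter spans of at least 5000 bp alone it was -6.35. These values are a description, with no test, since the bases are those that chose the domains and the 8 lists come from 4 conditions.

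**Figure D4:**
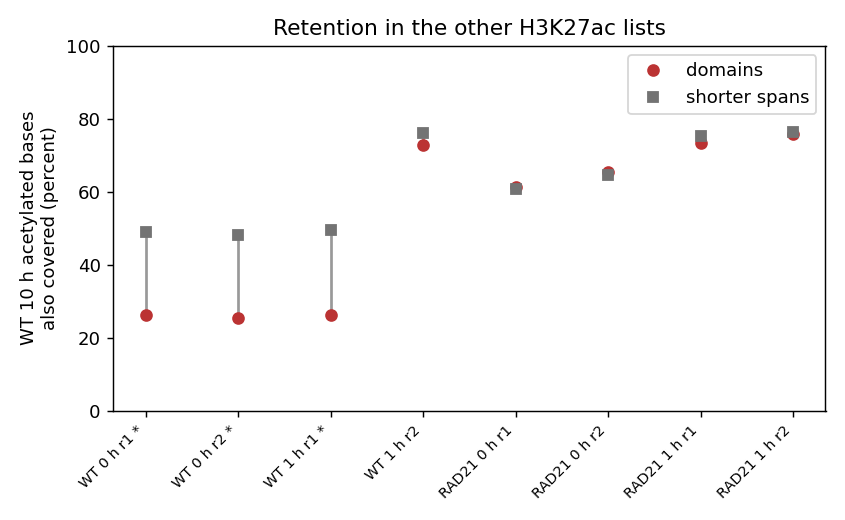
Percent of the bases acetylated at WT 10 h that each other H3K27ac list also covers, in domains (circles) and shorter spans (squares), joined within a list; asterisks mark the lists named without input. In those 3 lists domains lie near 25 to 26% and shorter spans near 48 to 49%, and in the other 5 the pairs nearly coincide.

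In the RAD21 line at 1 h against 0 h, 27 of 1082 domains tested changed, 11 higher and 16 lower, in limma on log2(covered bp + 500), centred per list and fitted over 8 lists (adjusted p under 0.05 over 11145 spans). Over all spans 4.17% were called higher and 1.81% lower, and of the domains 1.02% and 1.48%. The median domain difference was 0.07 and that of all spans -0.05 on the log2 scale. That fit takes its spread also from the WT 1 h pair, which holds a list of each form. With the 5 lists named with input alone, a fit added after seeing the data, 145 domains were higher (13.4%) and 88 lower (8.13%), beside 8.4% and 3.26% of all spans, and 22 of the 27 were called there too in the same direction.

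C1orf116 had 0.547 and 0.598 kb in RAD21 line cells at 0 h and 6.90 and 5.84 kb at 1 h, which did not overlap (log2 difference 2.47 ± 0.28 SE, adjusted p = 0.00727). The domain near FGF2, a fibroblast growth factor gene whose coding start lay 27.6 kb away, had 0.343 and 0.566 kb at 0 h and 3.60 and 3.73 kb at 1 h (1.93 ± 0.15, adjusted p = 0.00319). Both gained cover in every list of the 1 h group. The domain of PLXNA1, a semaphorin receptor, moved the other way, with 13.9 and 13.4 kb at 0 h and 0.625 and 0 kb at 1 h (-4.44 ± 0.35, adjusted p = 0.00319). HS6ST1, a heparan sulfate sulfotransferase, had 7.13 and 7.20 kb at 0 h and 1.67 and 1.02 kb at 1 h (-2.28 ± 0.21, adjusted p = 0.00422). PLXNA1 was also at 0.255 to 0.715 kb in the 4 WT lists at 0 and 1 h, and at 19.7 and 19.9 kb at WT 10 h. The WT 10 h lists chose the domain, and both WT 0 h lists and WT 1 h replicate 1 lack input. No change over time in WT is therefore read from these values.

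**Figure D5:**
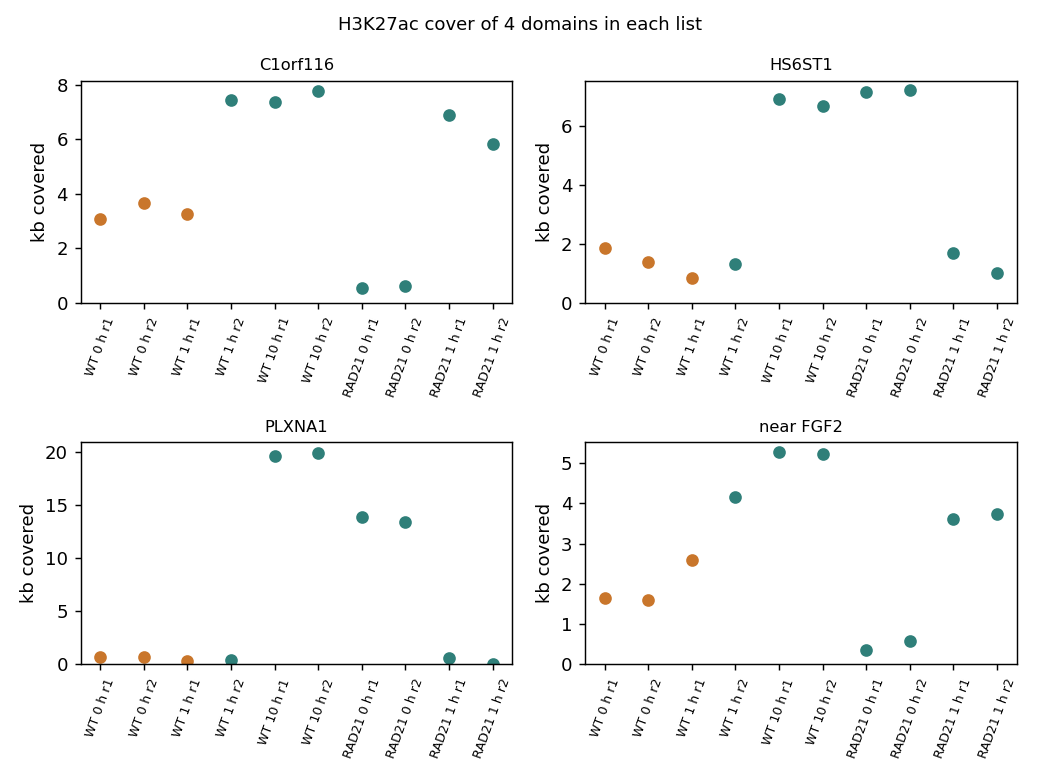
Kilobases covered by H3K27ac peaks in 4 domains, those with the smallest p in each direction for the RAD21 line at 1 h against 0 h, with a point per list (orange for lists named without input, green for the rest). C1orf116 and the domain near FGF2 rise from under 0.6 kb to over 3.6 kb, whereas PLXNA1 and HS6ST1 fall.

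No domain linked to any of the 6 gene lists passed this test over 8 lists. With the lists named with input, beside 13.4% of all domains higher and 8.13% lower, the p53 list had 4 higher and 1 lower of 19 domains, and the laminin, integrin, keratin and junction list 8 and 1 of 16. The intestinal transcription factors had 1 higher and 1 lower of 9, the Wnt and stem genes 0 and 2 of 8, the AP-1 and immediate early genes 1 and 0 of 13, and the EGFR list 2 and 0 of 8. The MDM2 domain held 4.35 and 4.52 kb in RAD21 line cells at 0 h and 9.86 and 12.3 kb at 1 h, and 2.06 and 2.99 kb at WT 0 h, 3.44 and 8.33 kb at WT 1 h, and 14.9 and 19.7 kb at WT 10 h. The WT 10 h lists chose the domain and the form differs between the WT lists, so no change over time in WT is read from these values. EHF, an epithelial transcription factor, held 3.80 to 5.73 kb in the 4 RAD21 line lists and 26.3 kb in WT 1 h replicate 2, of the same form.

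At 1 h against 0 h in WT cells, limma called 0 of 1082 domains, with 46 at an unadjusted p under 0.05 (41 higher), beside 0.108% of all spans higher and 0.135% lower. The absence of calls rests on WT 1 h replicate 1. Leaving it out compares a single list with input against 2 without, so the domains called in that fit are not read as a result. Among higher domains the smallest p was at CASZ1 (adjusted p = 0.105, limma). CASZ1 had 0 and 0 kb at 0 h and 0.752 and 1.501 kb at 1 h. Among lower domains the smallest p was at SNX6, a sorting nexin (adjusted p = 0.0501, limma). SNX6 had 0.347 and 0.359 kb at 0 h and 0 and 0 kb at 1 h. The pseudocount added to the cover weighs on both tests, and all of these SNX6 values lie below it. No change is read from either domain.

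Between lines at 0 h, 220 domains were higher in the RAD21 line and 6 lower, beside 9.6% and 7.76% of all spans. Line and form cannot be told apart at 0 h, and a fit with a term for the form, which only the WT 1 h pair can estimate, called 34 higher and 58 lower. The shares of all spans called in that fit are not given here. These counts therefore show only that the calls depend on the form, and nothing particular to the domains is read from them. Of the 6 lower, PDLIM5, a gene for an actin-associated protein, had 2.50 and 2.62 kb in WT and 0.396 and 0.784 kb in the RAD21 line (-1.55 ± 0.21, limma adjusted p = 0.00881). At 1 h 20 domains were higher in the RAD21 line and 2 lower, beside 0.969% and 1.47% of all spans; with lists named with input the counts were 9 and 8, beside 0.52% and 0.951%, where WT 1 h is 1 list, assumed to vary like the RAD21 line pairs. At 1 h PDLIM5 had 3.13 and 5.50 kb in WT and 0.980 and 1.16 kb in the RAD21 line (-1.69 ± 0.21, limma adjusted p = 0.0166; 0.0622 with the single WT list named with input). ACTR1A, a dynactin subunit gene, and MFSD13A shared a domain with 0 and 0.292 kb in WT at 1 h and 3.13 and 3.70 kb in the RAD21 line (2.52 ± 0.16, limma adjusted p = 0.00302). Of the 19 domains of the p53 list, 1 was higher in the RAD21 line at 1 h. The 1 h effect differed between lines in 8 domains, 1 with a higher and 7 with a lower log2 change in the RAD21 line than in WT, beside 1.35% and 0.52% of all spans.

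H3K4me1 covered most of the acetylated chromatin. It was present in all 6 lists in 1021 domains (93.8%) against 78.2% of shorter spans, with no allowance for length. Counted by piece the order was the other way in each of the 6 lists. In WT 0 h replicate 1, 65.3% of pieces in domains and 74.5% of those in shorter spans were touched. The mark was absent from every list in 27 domains, among them MTOR, CCT3 and EPRS1. Per list, a median of 51.8 to 58.4% of the domain span was covered. Averaged over the lists, the median was 55.3% for domains and 100% for shorter spans. Of the domains, 182 averaged at least 90%, and 130 under 10%. LIF and EHF were covered throughout in all 6 lists. Of the bases acetylated at WT 10 h, the share also under H3K4me1 was lower in domains than in shorter spans in 6 of 6 lists (difference -2.26 percentage points, SD 0.646, and -1.02 against shorter spans of at least 5000 bp). This is a description, with no test, since those bases chose the domains and the 6 lists come from 3 conditions.

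H3K4me1 changed in few domains. At 1 h 3 were higher and 4 lower of 1054, beside 0.603% and 0.184% of 11436 spans, and at 10 h 10 were higher and 5 lower, beside 2.35% and 0.35%. PITPNB, a phosphatidylinositol transfer protein gene, had 0.670 and 0.552 kb at 0 h, 2.17 and 2.17 kb at 1 h and 1.87 and 1.80 kb at 10 h (10 h difference 1.06 ± 0.05, limma adjusted p = 0.00178). LMNB1, the gene for lamin B1, had 23.4 and 23.4 kb at 0 h and 14.2 and 14.6 kb at 10 h (-0.69 ± 0.04, limma adjusted p = 0.00226), a difference of 0.02 when only bases inside the 10 h pieces were counted. The H3K27ac cover of LMNB1 was 3.76 and 3.04 kb at WT 0 h and 15.9 and 13.03 kb at 10 h, lists of different form, and the 10 h lists chose the domain. No domain linked to the 6 gene lists was called at 10 h, and 1 of the laminin, integrin, keratin and junction list was lower at 1 h.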

How the data were processed

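Per the labels and the study's methods, reads of HCT116 ChIP-seq libraries were trimmed with Trim Galore 0.6.6, aligned to GRCh37 with Bowtie2 2.3.2 and peaks were called with MACS2 2.2.7.1, which the methods describe as run at default settings against an input control; whether that holds for the 3 lists whose peak names lack the word input is not given in the sources used here. The deposited narrow (H3K27ac) and broad (H3K4me1) peak lists give a fold enrichment ratio and -log10 p-values and q-values; these and the peak coordinates are the authors' values. The 10 input samples had no lists. Coding starts and genes came from GENCODE v44lift37 on GRCh37; no deposited list had peaks past a chromosome end. Domains, linked genes and lists were chosen with earlier results of these data known. Cover was the bp of a span inside any peak of a list, peaks near coding starts included. limma 3.58.1 (R 4.3.3) fitted log2(bp + 500), centred per list, over spans with cover in at least 2 lists, with Benjamini-Hochberg adjustment over all spans; fits were tested on simulated data. Differences between domains and shorter spans in the 10 h bases are given without a test, since those bases chose the domains; exact sign-flip tests had been set for them. Replicates are separate lists of a group, and p-values measure the spread between these lists. Domains named were the 10 longest, those with the 2 smallest p in each direction per comparison, up to 4 per gene list, the lowest in cover, and those at the 20 kb limit; EHF, MDM2 and LIF come under the gene lists. For H3K27ac, 20 fits were run in all: the reported one, 9 with another setting, 8 that leave out a list and 2 added after seeing the data (lists named with input only, and pieces touched in place of bp). For H3K4me1 there were 15, 8 of them with another setting and 6 that leave out a list. Same-numbered replicates deviated together with correlations of -0.146 to 0.0993, so numbers were not taken to pair samples. The result for 1 domain and 2 sequence windows that these rules select are not reported here.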

Additional observations from a re-analysis of the deposited data

Results flagged for a closer look

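The 1 h effect on H3K27ac cover differed between the lines in 8 domains by the interaction term in limma (log2 scale, RAD21 line effect less WT effect): NPM1 at 3.09, CYFIP1 at -3.05, PLXNA1 at -3.77, WDR4 at -2.68, YEATS2 at -1.37, MAD1L1 at -4.21, MDN1 at -1.57 and IGF2R at -2.21. Of all spans 1.35% were called higher and 0.52% lower, and of the domains 0.0924% and 0.647%, so such calls are not particular to the domains. PLXNA1 and WDR4 lost cover in the RAD21 line at 1 h, WDR4 from 4.69 and 7.06 kb to 0.767 and 1.02 kb. In WT at 0 and 1 h they stayed at or under 0.715 and 0.409 kb. NPM1 gained in the RAD21 line, from 0.310 and 0 kb to 4.41 and 6.78 kb, with WT at 0 and 1 h at or under 0.323 kb. Cover was low at YEATS2, MDN1 and IGF2R. In the RAD21 line YEATS2 went from 0.749 and 0.707 kb to 0 and 0 kb. MDN1 went from 0.569 and 0.698 kb, and IGF2R from 0.842 and 1.385 kb, to 0 and 0 kb. WT at 0 and 1 h was at or under 0.446 kb in all of them. Their log2 values therefore rest largely on the pseudocount added to the cover. CYFIP1 was also low, from 2.02 and 0.960 kb to 0 and 0 kb in the RAD21 line. In WT it went from 0 and 0 kb to 0.460 and 0.590 kb. MAD1L1 went from 3.05 and 5.46 kb to 0.412 and 0 kb in the RAD21 line, and from 0.744 and 0.241 kb to 1.24 and 3.00 kb in WT. The pseudocount also weighs on the log2 values of CYFIP1 and MAD1L1. At WT 10 h, in the lists that chose the domains, WDR4 held 14.5 and 10.1 kb and NPM1 7.62 and 8.02 kb, so no late gain is read from them. The WT side compares 2 lists named without input with a pair holding a list of each form, and the part of the form in these differences was not tested domain by domain. The call was lost under 15 of 17 other settings for NPM1, 8 of 17 for PLXNA1 and 4 of 17 for CYFIP1, and the number called moves from 0 to 726 as single lists are left out.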

How the results depend on the processing

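Counts are of domains called. Shares of all spans are given above only for the reported fits and for fits with lists named with input. The counts below therefore show how calls move with the setting and do not set domains apart from other spans. RAD21 line at 1 h against 0 h (27): 46 with -log10 q of at least 5, 68 with rank scores, 42 with fold-weighted cover, 14 in spans covered in every list, 280 with a form term (estimated from the WT 1 h pair alone), 233 with lists named with input, and 6 to 280 leaving out a list. WT at 1 h (0): 2 with the q limit, 2 inside 10 h pieces, 6 with rank scores, 1 without centring, 4 with a pseudocount of 100 bp, and 0 to 815 leaving out a list. Lines at 1 h (22): 37, 42, 6 and 94 with the q limit, rank scores, spans covered in every list and form term, and 4 to 876 leaving out a list. Lines at 0 h (226): 367 with rank scores (203 higher, 164 lower), 55 without centring, 403 fold-weighted, 92 with the form term, and 20 to 903 leaving out a list. Interaction (8): 23, 22, 0 and 86 with the q limit, rank scores, spans covered in every list and form term, and 0 to 726 leaving out a list. Counting pieces touched in place of bp, chosen after seeing the data, gave 12 for WT at 1 h, 47 for lines at 0 h and 24 for the interaction; on that discrete scale both replicates tied in every group in 73 of 1067 domains and 5827 of 11029 spans, so its p-values reach 4.23e-81 and are not reliable. H3K4me1 at 1 h (7): 11 inside 10 h pieces, 0 without centring, 16 fold-weighted, and 2 to 9 leaving out a list. H3K4me1 at 10 h (15): 29 inside 10 h pieces, 3 without centring, 29 fold-weighted, 2 in spans covered in every list, and 8 to 16 leaving out a list. With a replicate block the counts were 26, 0, 19, 170 and 5 for H3K27ac in the order above and 1 and 13 for H3K4me1; the numbers are not shown to pair samples.

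The H3K4me1 share difference ran from -2.44 to -2.11 leaving out a list, and was -1.85 with the q limit and -1.02 against shorter spans of at least 5000 bp. The difference in 10 h bases also covered ran from -10.6 to -7.16 leaving out a list, was -9.56 with the q limit and -6.35 against shorter spans of at least 5000 bp, and was -0.901 and -22.98 within the forms. The number of domains was 585 with the q limit, 343 stitched at 5000 bp, 1650 with no pieces removed, 581 at 30 kb, and 1503 to 1611 from a single list. Domains overlapping long spans numbered 230 and 738 at WT 1 h from single lists, 294 in the RAD21 line at 0 h with the q limit and 676 to 743 there from single lists. Of 380 values of named domains under alternatives, 282 kept direction and call, 97 lost the call, and LMNB1 in H3K4me1 at 10 h turned to 0.0234 when only bases inside 10 h pieces were counted.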
